A study of Mus musculus with 8 samples.

Results

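The response of adipocytes to A66 in the presence of palmitate was compared with their response to A66 without it, gene by gene. Of 43629 genes in the count table, the 14587 that passed a filter on low counts were taken, in all 8 libraries. The cells were 3T3-L1, a mouse preadipocyte line that turns into adipocytes in culture after insulin, dexamethasone, isobutylmethylxanthine and rosiglitazone. On day 8 of differentiation they received A66 at 2 µM, palmitate at 0.5 mM bound to albumin, both agents, or neither, and RNA was taken after 24 h. Each of these 4 groups has 2 libraries. The study's methods call those of A66 and vehicle biological repeats, and the labels only number the replicates, so the p-values measure the spread between these libraries.

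Some features limit these groups as a model. All 4 groups share the same differentiation mixture, including the PPARγ agonist rosiglitazone, and come from 1 cell line. The labels call the control cells untreated and name neither an albumin control for palmitate nor a vehicle for A66, whereas the study's methods name DMSO and a lower dose of A66. Directions follow the sample labels, so an exchange of the A66 and untreated names in both palmitate states would turn the sign of every A66 effect and of every interaction. It would also exchange the values given as with and without A66, so that a palmitate effect called stronger with A66, as that on Hmox1, would be a blunted one.

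A66 blocks p110α, the catalytic subunit of phosphoinositide 3-kinase that carries most of the insulin signal in adipocytes, through AKT to glucose uptake, lipid synthesis, FOXO factors and protein synthesis. Palmitate is a saturated fatty acid that is stored as triglyceride and, in excess, can engage endoplasmic reticulum stress, oxidative stress and inflammatory signalling. With both agents crossed, the interaction is the A66 effect with palmitate minus the A66 effect without it, on the log2 scale, which equals the palmitate effect with A66 minus that without. A value of 0 means that the fold changes of the agents multiply, here called additive because their log2 values add. Where the effect of an agent kept its sign and was larger with the other agent it was called stronger, where smaller blunted, and where the sign differed turned.

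Library totals lay between 42247091 and 57529803 counts. The adipocyte identity of the cultures was checked by markers. All 10 mature adipocyte markers were above 1 CPM in every group (CPM are counts scaled by the library total and TMM factor, as edgeR gives them), with Adipoq, which encodes adiponectin, at 2049 to 2547 CPM. Of the 10 preadipocyte and fibroblast markers 7 were above 1 CPM, with Vim at 880 to 1100 CPM, Pdgfrb at 191 to 219 and Acta2 at 158 to 248, while Dlk1 and Dpp4 had no count in any library. Of the 10 macrophage markers 3 were above 1 CPM, the highest Cd14 at 7.36 to 10.2 CPM, while Adgre1, C1qa and Fcgr1 had no count. Of the 8 endothelial markers Flt1 alone was above 1 CPM, at 8.43 to 10.95 CPM, and Kdr had no count. Replicates of a group differed by more than the noise of counting, as their chi-square averaged 6.15 to 8.99 over genes where counting alone gives about 1. Ribosomal RNA genes took 1.54% to 1.69% of the counts in untreated cells, 2.28% to 2.77% under A66, 1.84% to 2.26% under palmitate and 2.49% to 3.09% under both agents.

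One gene passed the test of the interaction, made with edgeR (quasi-likelihood) and adjusted by Benjamini-Hochberg over all genes, at an adjusted p under 0.05. It was Hmox1, which encodes heme oxygenase 1, the stress-inducible enzyme that breaks down heme, and its interaction was positive. That is 0.00686% of the genes tested. In the negative direction 0 genes passed, or 0% of the genes tested, while 635 had a negative interaction at an unadjusted p under 0.05 (4.35%) and 520 a positive one (3.56%). DESeq2's Wald test called 8 genes positive and 13 negative, and edgeR with no filter on low counts 20 and 71. No gene passed in either direction when edgeR was asked for a change of more than 1.2-fold.

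Hmox1 (ENSMUSG00000005413, GRCm38 chr8:75093621-75100589, plus strand, protein-coding) stood at 374 and 401 CPM in the untreated libraries and at 352 and 358 CPM with A66. With palmitate it stood at 394 and 393 CPM, and with both agents at 494 and 489 CPM. Both combination libraries were above the other 6 libraries, both A66 libraries were below all others, and the untreated and palmitate libraries overlapped. The interaction was 0.45 ± 0.06 (log2 ± SE, 95% interval 0.33 to 0.57, n = 2 libraries per group, adjusted p = 0.0019), a factor of 1.36 above the level at which the fold changes would multiply. Palmitate changed Hmox1 by 0.02 on the log2 scale without A66 and by 0.47 with it, so that its effect was stronger in the combination. The A66 effect was turned, from -0.13 (adjusted p = 0.17) without palmitate to 0.32 (adjusted p = 0.00014) with it. Against untreated cells the combination stood 0.34 higher, where the sum of the single effects was -0.10. Leaving out 1 library at a time gave interactions from 0.39 to 0.50. Without the first A66 library the adjusted p was 0.068, and it was under the threshold without any other library.

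Of the negative interactions, the 5 genes with the smallest p are given as values, as none passed the test. All 5 were called when the filter on low counts was left out, a fit that called many more genes than the main one. Leaving out 1 library also gave each of them a call at least once, among the untreated, palmitate and second combination libraries, whereas none was called without either A66 library or the first combination library. Ogn, which encodes the matrix proteoglycan osteoglycin (ENSMUSG00000021390, GRCm38 chr13:49608046-49624501), stood at 46.2 and 40.3 CPM in untreated cells, 48.1 and 44.9 under A66, 58.2 and 54.3 under palmitate and 38.3 and 44.2 under both agents. Its 2 palmitate libraries were the highest of the 8, and the untreated libraries overlapped those of both remaining groups. The interaction of Ogn was -0.56 ± 0.10 (SE, adjusted p = 0.061). It was called with the replicate number as a block (adjusted p = 0.041) and with scaling by library size alone (adjusted p = 0.022).

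Rpl36, a protein of the large ribosomal subunit, stood at 92.8 and 108 CPM in untreated cells, 148 and 139 under A66, 113 and 118 under palmitate and 118 and 127 under both agents. Its highest values were those of the A66 libraries, with no overlap with any other group. The interaction of Rpl36 was -0.42 ± 0.08 (SE, adjusted p = 0.12), with an A66 effect of 0.51 without palmitate and 0.09 with it. With the replicate block its adjusted p was 0.041, and with DESeq2's Wald test it was 0.0019. With a correction of each library for trends on gene length and GC content the interaction was -0.28 and was not called (adjusted p = 0.18).

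Bsg encodes basigin, a membrane glycoprotein that escorts lactate transporters, and stood at 302 and 318 CPM in untreated cells, 310 and 324 under A66, 337 and 355 under palmitate and 287 and 282 under both agents. The combination libraries were the lowest and the palmitate libraries the highest. Its interaction was -0.31 ± 0.06 (SE, adjusted p = 0.12), and DESeq2's Wald test called it (adjusted p = 0.00025). Nrep, which encodes a neuronal regeneration related protein, had an interaction of -0.34 and Car3, a carbonic anhydrase abundant in fat, one of -0.57, both with an adjusted p of 0.13. Nrep was called with the length and GC correction (adjusted p = 0.041) but not when the replicate block was added to it (adjusted p = 0.065).

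**Figure D1:**
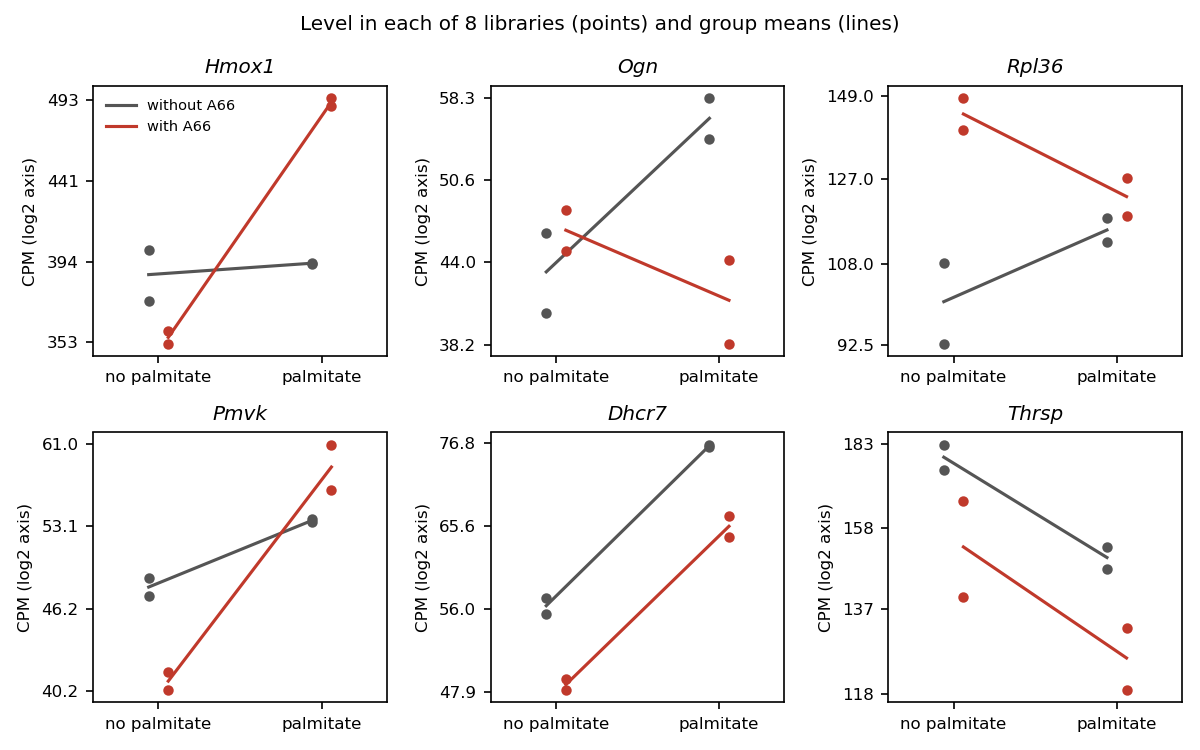
Level of 6 genes in CPM, on a log2 axis, in each of the 8 libraries, with grey points and lines for cells without A66 and red for cells with A66; lines join the 2 group means and run parallel where the fold changes multiply. The lines of Hmox1, Ogn and Pmvk cross, whereas those of Dhcr7 and Thrsp run close to parallel.

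How close to additive a gene was could be resolved only where counts were high. The 95% interval of the interaction reached a median of 0.13 on the log2 scale to either side above 100 CPM, 0.18 from 10 to 100 CPM, 0.49 from 1 to 10 CPM and 1.53 below 1 CPM. It lay wholly within a 1.2-fold change in 5446 genes (37.3%) and within 1.5-fold in 9962 (68.3%). No gene with a mean under 10 CPM had an interval within 1.2-fold.

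Additive genes were sought among those that responded to both agents. Averaged over both A66 states, palmitate raised 398 genes (2.73%) and lowered 338 (2.32%). Averaged over both palmitate states, A66 raised 317 genes (2.17%) and lowered 408 (2.8%). Both average effects were called in 168 genes. In 89 of these (53.0%) the interaction was not called and its interval lay within 1.2-fold, and in 157 it lay within 1.5-fold. An unadjusted interaction p under 0.05 was found in 41 of the 168, against 1155 of all 14587 genes tested. Of the 168 genes, 75 were lower with both agents, 46 higher with both, 39 higher with palmitate and lower with A66, and 8 the reverse, and the additive genes among them numbered 40, 23, 21 and 5.

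The additive genes that both agents raised included Gdpd1, Rnase4 and Gadd45a. Gdpd1, a glycerophosphodiester phosphodiesterase that acts on lysophospholipids, stood at 18.3 and 18.6 CPM in untreated cells, 23.7 and 23.1 under A66, 22.2 and 20.7 under palmitate and 28.3 and 27.7 under both agents. None of the 4 groups overlapped, and the combination was the highest. Its interaction was 0.04 (95% interval -0.15 to 0.24), and the combination reached 0.60 against a sum of single effects of 0.56. For Rnase4, a secreted ribonuclease whose gene overlaps Ang on the same strand, the combination reached 0.51 against a sum of 0.53. For Gadd45a, which is induced by DNA damage and growth arrest, these values were 0.46 and 0.35.

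Of the additive genes that palmitate raised and A66 lowered, Dhcr7 encodes a reductase of the last step of cholesterol synthesis. It stood at 57.2 and 55.5 CPM in untreated cells, 49.1 and 48.0 under A66, 76.3 and 76.6 under palmitate and 66.9 and 64.3 under both agents. None of the 4 groups overlapped, and the combination lay between untreated cells and palmitate. The interaction of Dhcr7 was -0.01 (95% interval -0.14 to 0.13), and its combination effect of 0.22 equalled the sum of its single effects at 2 decimals.

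In the opposite pairing, Slc6a6, the taurine transporter, stood at 676 and 650 CPM in untreated cells, 736 and 740 under A66, 574 and 585 under palmitate and 661 and 679 under both agents. The combination overlapped the untreated libraries. The interaction of Slc6a6 was 0.05 (95% interval -0.06 to 0.17). Sbsn, a secreted protein of epithelia, and Cgnl1, a cell junction protein, were the other named genes of this kind, each with an interaction of 0.05. The main effects of these 2 lost their calls without several single libraries. Of the additive genes above, the palmitate main effect of Rnase4 lost its call without the first palmitate library (adjusted p = 0.057).

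Among the genes that both agents lowered, Thrsp, which promotes fatty acid synthesis, stood at 175 and 183 CPM in untreated cells, 166 and 140 under A66, 147 and 153 under palmitate and 119 and 133 under both agents. The combination libraries were below the other 6, and the A66 libraries spanned those with palmitate. Its combination effect was -0.51 and the sum of its single effects -0.48. Agt, which encodes angiotensinogen, had a combination effect of -0.47 against a sum of -0.39, and Pkdcc, a secreted tyrosine kinase, one of -0.47 against -0.45. The A66 main effect of Pkdcc lost its call without the second palmitate library (adjusted p = 0.061).

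**Figure D2:**
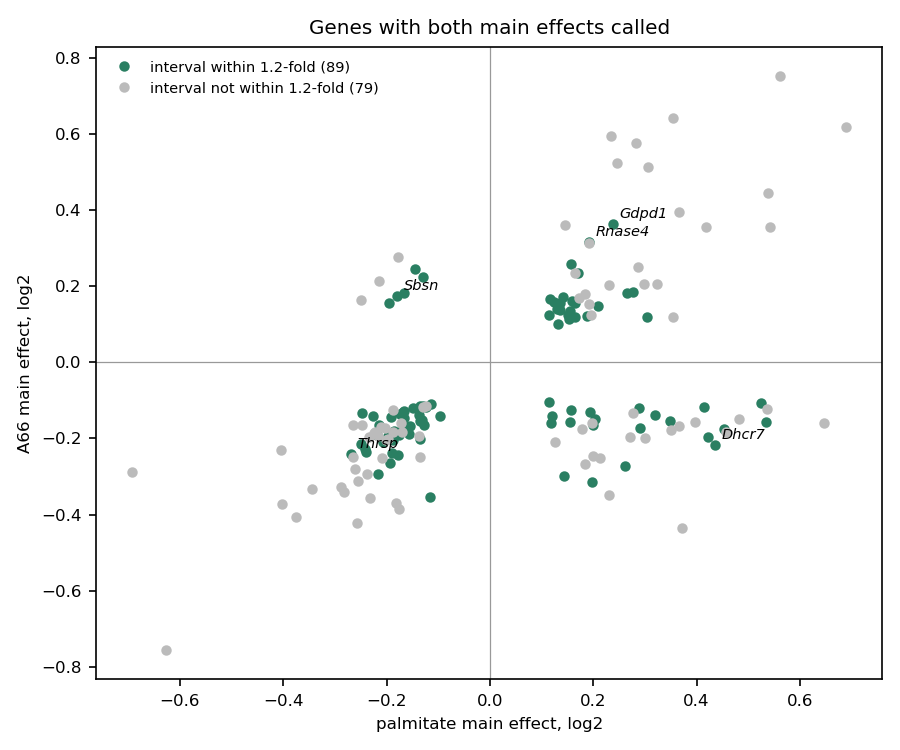
Main effect of A66 against main effect of palmitate, both log2, for the 168 genes with both called; green points are the 89 whose 95% interval of the interaction lay within 1.2-fold and grey points the other 79. Most points fall in the lower left and upper right, and the upper left holds 8.

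The effect of each agent was next compared with and without the other, in the genes called for its main effect, whose error is independent of that of the interaction in this balanced design. Of the 736 genes called for palmitate, the palmitate effect was larger with A66 in 492 (66.8%) and smaller in 244, and its sign turned in 0. Over all genes tested the share was 52.6%. The genes that palmitate raised went from a median of 0.16 without A66 to 0.22 with it, and those it lowered from -0.15 to -0.20. At an unadjusted interaction p under 0.05 the effect was larger in 112 of the 736 genes and smaller in 26.

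Of the 725 genes called for A66, the A66 effect was larger with palmitate in 449 (61.9%) and smaller in 276, against a share of 51.9% over all genes, and its sign turned in 5. At an unadjusted interaction p under 0.05 it was larger in 97 genes and smaller in 45. The genes that A66 lowered went from a median of -0.17 without palmitate to -0.22 with it, and 282 of 408 had the larger effect with palmitate. Those it raised had a median of 0.19 in both states, and 167 of 317 had the larger effect with palmitate, with 26 larger and 28 smaller at an unadjusted interaction p under 0.05. Both shares moved with single libraries. That for palmitate ran from 50.8% without the second palmitate library to 80.9% without the second A66 library, and that for A66 from 48.7% without the second untreated library to 72.5% without the first palmitate library.

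**Figure D3:**
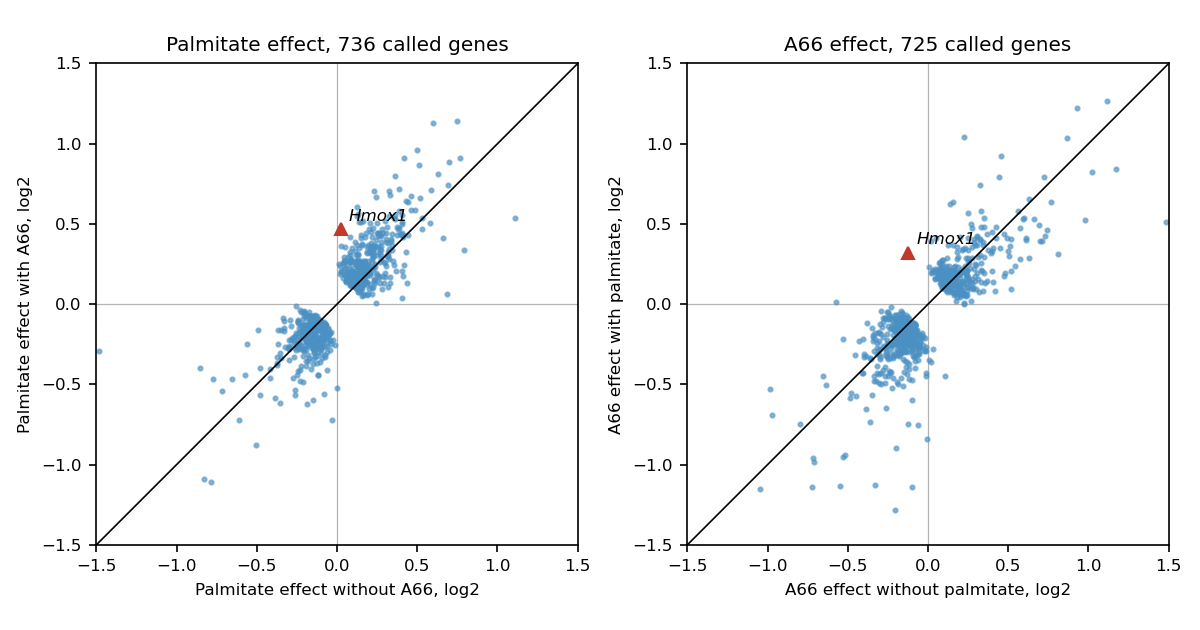
Left, palmitate effect with A66 against palmitate effect without it for the 736 genes called for palmitate; right, the same for A66 in 725 genes, all log2, with the line of equal effect. Hmox1 (triangle), called for palmitate but not for A66 and drawn in both panels, lies at 0.02 on the horizontal and 0.47 on the vertical axis on the left and at -0.13 and 0.32 on the right; 8 and 17 genes lie outside the axes.

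Gene groups were then followed across the interaction, by their counts and medians. Over all genes tested the median interaction was 0.00 and 49.4% of the values were below 0. The counts of members at an unadjusted p under 0.05 are to be set against 3.56% positive and 4.35% negative over all genes. Apart from Hmox1, no member of the 23 lists passed the test of the interaction.

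In the list of 31 antioxidant genes controlled by NRF2, the factor released by oxidative stress, 25 interactions were above 0, with a median of 0.07. At an unadjusted p under 0.05, 7 were positive and 1 negative, Hmox1 among them, and palmitate raised 8 of the 31. Srxn1, which encodes sulfiredoxin, stood at 103 and 111 CPM in untreated cells, 99.4 and 99.0 under A66, 122 and 109 under palmitate and 133 and 127 under both agents. Its combination libraries were the highest and its A66 libraries the lowest, and its interaction was 0.27 ± 0.07 (SE, adjusted p = 0.30). The subunits of glutamate-cysteine ligase, which makes the first step of glutathione synthesis, had interactions of 0.23 (Gclc) and 0.18 (Gclm). The median of the list was 0.03 without the second palmitate library.

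The 36 genes of the integrated stress response, which ATF4 induces when amino acids are short or proteins misfold, had a median interaction of 0.08, with 28 above 0. Palmitate raised 19 of them and lowered 0. At an unadjusted p under 0.05, 9 interactions were positive and 2 negative. Slc7a11, the cystine transporter that both this list and the NRF2 list hold, stood at 13.8 and 14.7 CPM in untreated cells, 14.4 and 14.4 under A66, 20.9 and 15.8 under palmitate and 26.4 and 23.7 under both agents. Its combination libraries were the highest, and the palmitate effect was 0.36 without A66 and 0.80 with it (interaction 0.44, adjusted p = 0.44). Without the second palmitate library the interaction of Slc7a11 was 0.25. Slc7a1, a transporter of cationic amino acids, had an interaction of 0.25 (adjusted p = 0.31), and Asns, asparagine synthetase, one of 0.19.

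The unfolded protein response list of 23 genes had a median of 0.06 with 19 above 0, 5 of them at an unadjusted p under 0.05 and 0 negative ones. Atf6, a sensor of misfolded proteins in the endoplasmic reticulum, stood at 139 and 136 CPM in untreated cells, 130 and 128 under A66, 142 and 141 under palmitate and 158 and 153 under both agents. All 4 groups were separate, with the combination the highest. The interaction of Atf6 was 0.22 (adjusted p = 0.29) and that of Ern1, a sensor of the same stress, was 0.17 (adjusted p = 0.52), or 0.11 without the second palmitate library. DESeq2's Wald test called Atf6.

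Palmitate raised all 24 genes tested of cholesterol synthesis and uptake, and A66 lowered 13 of them. Their median palmitate effect was 0.36 without A66 and 0.46 with it, and their median A66 effect was -0.18 without palmitate and -0.08 with it. The median interaction was 0.10, with 20 above 0, 9 positive at an unadjusted p under 0.05 and 0 negative. In 13 of the 24 the interval lay within 1.2-fold, so that this list holds additive genes such as Dhcr7 beside those with larger values.

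Pmvk, which encodes phosphomevalonate kinase, had the smallest interaction p of the list. It stood at 48.7 and 47.2 CPM in untreated cells, 41.5 and 40.3 under A66, 53.5 and 53.8 under palmitate and 56.5 and 60.9 under both agents. The A66 libraries were the lowest without palmitate, and with palmitate the order was reversed. The interaction was 0.36 ± 0.07 (SE, adjusted p = 0.13). Pmvk too was called with the length and GC correction (0.41, adjusted p = 0.041) but not with the replicate block added (adjusted p = 0.066). Cyp51, the lanosterol demethylase, whose gene overlaps Akap9 on the opposite strand, had an interaction of 0.22 (adjusted p = 0.33), with an A66 effect of -0.23 without palmitate and -0.02 with it. Sqle, squalene epoxidase, had an A66 effect of -0.28 without palmitate and -0.09 with it, a blunted one, and was called by DESeq2.

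In fatty acid synthesis, elongation and desaturation, palmitate raised 12 of 22 genes and lowered 1, A66 lowered 10 and raised 1, and the median interaction was 0.05. Scd3, a stearoyl-CoA desaturase, had an interaction of 0.59 (adjusted p = 0.33) at 6.28 to 10.7 CPM over the libraries. Mlxipl, which encodes the carbohydrate response factor ChREBP, had one of 0.63 (adjusted p = 0.46), with a highest value of 9.95 CPM, and 0.41 without the first palmitate library. The reads of Scd3 may be shared with its near-identical paralogs.

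The interferon-stimulated genes had the lowest median interaction of the lists, at -0.25 over 48 genes with 41 below 0. At an unadjusted p under 0.05, 12 were negative and 0 positive. A66 lowered 30 of them, palmitate raised 2, and the median A66 effect was -0.27 without palmitate and -0.49 with it. Palmitate had a median effect of 0.18 without A66 and -0.11 with it.

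Most interferon-stimulated genes were measured at low counts, and in 5 of the 48 the interval of the interaction lay within 1.2-fold. Ifit3, which binds and restrains foreign RNA together with its relatives, stood at 6.43 and 5.55 CPM in untreated cells, 5.27 and 5.69 under A66, 9.42 and 9.75 under palmitate and 5.48 and 5.94 under both agents. The palmitate libraries were above the other 6, which overlapped. Ifit3b stood at 3.27 and 2.31 CPM in untreated cells, 3.23 and 3.43 under A66, 5.0 and 4.42 under palmitate and 3.05 and 2.97 under both agents, again highest with palmitate. The interaction of Ifit3b was -0.91 ± 0.24 (SE, adjusted p = 0.30), and reads of the 2 paralogs may be shared. Iigp1 and Igtp, GTPases that act on intracellular parasites, had interactions of -1.04 (adjusted p = 0.28) and -0.83. For Oasl2, an oligoadenylate synthetase-like protein, the A66 effect was -0.74 without palmitate and -1.92 with it.

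Summed macrophage markers stood at 13.3 to 14.2 CPM in untreated cells, 14.2 to 15.9 under A66, 15.3 to 16.6 under palmitate and 17.9 to 19.0 under both agents. Only 3 of the 10 markers were above 1 CPM and 3 had no count in any library. Markers differed in direction, as Cd68 was highest under both agents, at 5.40 and 5.74 CPM, and Lyz2 lowest there, at 2.14 and 2.83 CPM. The median effect on the interferon-stimulated genes against untreated cells was 0.18 with palmitate, -0.27 with A66 and -0.36 with both, and the part of the marker levels in it was not tested.

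In the list of cytokines, chemokines and NF-kB response genes, 29 of 40 were tested and the median interaction was 0.07, which ran from -0.02 without the first combination library to 0.09 without the second palmitate library. Serpina3n, an acute phase protease inhibitor, had an interaction of 0.59 (adjusted p = 0.31), and Hp, which encodes haptoglobin and which both agents lowered, had one of 0.31 (adjusted p = 0.44), a blunted effect of either agent. The interaction of Hp was 0.18 without the first palmitate library and 0.20 without the second untreated library.

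**Figure D4:**
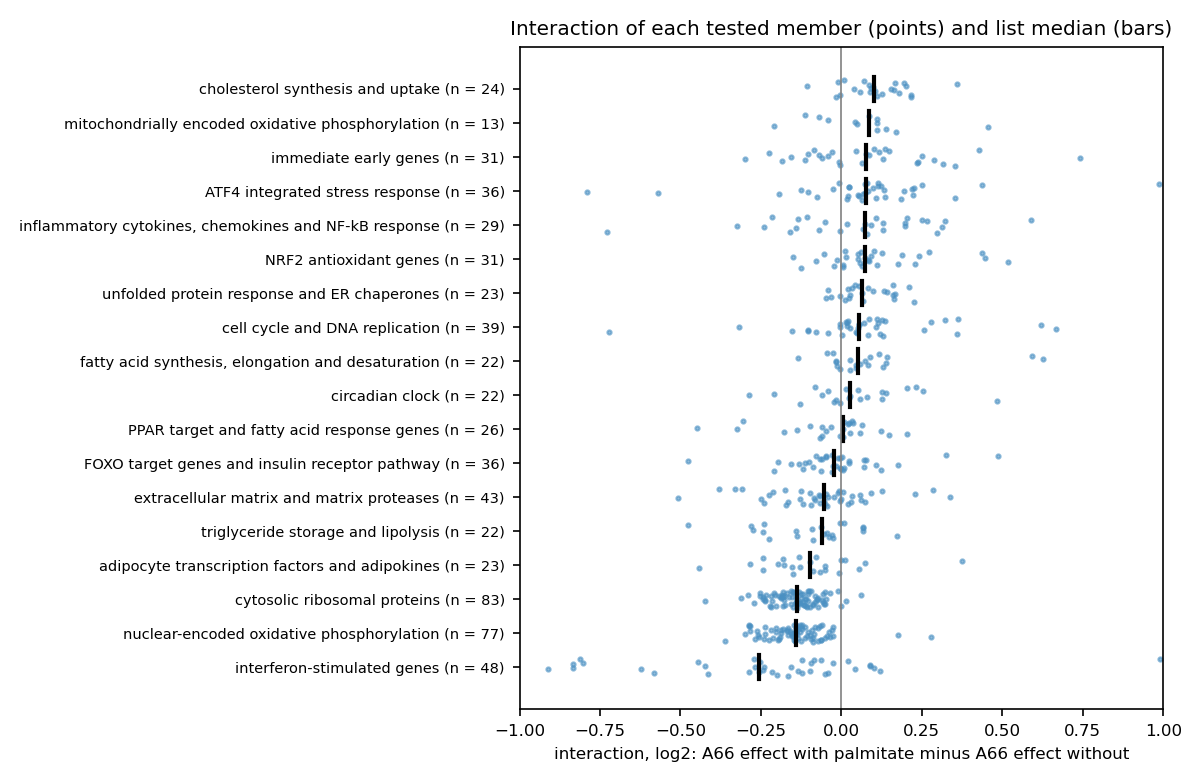
Interaction (log2) of every tested member of 18 gene lists, as points, with the list median as a black bar; lists are ordered by median and 17 points lie outside the axis. The bars run from -0.25 in interferon-stimulated genes to 0.10 in cholesterol synthesis and uptake.

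Cytosolic ribosomal proteins and the nuclear-encoded subunits of oxidative phosphorylation had interactions below 0 almost throughout. Among the ribosomal proteins 81 of 83 were below 0, with a median of -0.14 and 44 negative at an unadjusted p under 0.05. A66 raised 25 of the 83 by its main effect, and the median A66 effect was 0.15 without palmitate and 0.02 with it. Rplp1, a protein of the ribosomal stalk, stood at 418 and 473 CPM in untreated cells, 520 and 523 under A66, 504 and 522 under palmitate and 510 and 457 under both agents. The untreated libraries were lowest but for overlap with the combination, and the interaction of Rplp1 was -0.31 (adjusted p = 0.28). Ribosomal protein genes share reads with many processed copies, and how the authors' counting treated these was not tested.

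In oxidative phosphorylation 75 of 77 nuclear-encoded subunits were below 0, with a median of -0.14, 41 negative and 1 positive at an unadjusted p under 0.05. Their median A66 effect was 0.03 without palmitate and -0.11 with it, and A66 lowered 7 and raised 0 by its main effect. Uqcr10, a small subunit of complex III, stood at 77.2 and 80.1 CPM in untreated cells, 93.0 and 87.8 under A66, 85.8 and 80.0 under palmitate and 79.2 and 76.9 under both agents. The A66 libraries were the highest, and the combination overlapped the untreated libraries. The interaction was -0.29 for Uqcr10 (adjusted p = 0.27) and -0.28 for Uqcr11 (adjusted p = 0.28). The 13 mitochondrially encoded subunits had a median of 0.09 with 4 below 0, which was 0.04 without the first untreated library and 0.14 without the second, and mt-Co1, a core subunit of complex IV, had an interaction of 0.14.

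Gene length moved with these groups. A part of the genes tested was divided into eighths by exonic length, of 1250 to 1253 genes each. The median interaction was -0.06 in the shortest eighth and 0.02 in the longest. Both lists hold short genes, with median exonic lengths of 1770 and 1756 bases. Shortest-eighth genes outside both lists had a median of -0.04 and those on the lists -0.14. After a correction of each library for trends on length and GC content, the medians were -0.09 for ribosomal proteins and -0.09 for oxidative phosphorylation. The interactions were then -0.19 for Rplp1, -0.19 for Uqcr10 and -0.17 for Uqcr11. The share of ribosomal RNA was higher with A66 in both palmitate states, and its part in these results was not tested.

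Genes of the adipocyte itself had interactions mostly below 0. Of 23 adipocyte transcription factors and adipokines 18 were below 0, with a median of -0.10 and 5 negative at an unadjusted p under 0.05, and palmitate lowered 9. The median was -0.04 without the second palmitate library and -0.16 without the second combination library. Retn, which encodes the adipokine resistin, stood at 324 and 353 CPM in untreated cells, 331 and 309 under A66, 315 and 328 under palmitate and 265 and 249 under both agents. The combination libraries were below the other 6, which overlapped. The effect of either agent on Retn was -0.08 alone and -0.32 with the other (interaction -0.24, adjusted p = 0.34). Klf15, a transcription factor of amino acid and lipid metabolism, was also lowest in the combination libraries, at 47.1 and 46.9 CPM against 53.3 to 57.2 in the other 6, with an interaction of -0.20 (adjusted p = 0.47).

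Palmitate lowered 14 of 22 genes of triglyceride storage and lipolysis and raised 1, A66 lowered 7, and the median interaction was -0.06. It was -0.12 without the first palmitate library and -0.005 without the second. Plin1, which coats the lipid droplet, stood at 468 and 474 CPM in untreated cells, 517 and 486 under A66, 428 and 486 under palmitate and 396 and 428 under both agents. The palmitate replicates were far apart and overlapped other groups, and the interaction was -0.24 (adjusted p = 0.41). G0s2, an inhibitor of the lipase ATGL, had an interaction of -0.25 (adjusted p = 0.41). Without the second palmitate library both interactions were -0.15, and with the length and GC correction that of G0s2 was -0.15. Summed mature adipocyte markers stood at 8930 to 9212 CPM in untreated cells, 9220 to 9761 under A66, 8228 to 8990 under palmitate and 7930 to 8699 under both agents. Fewer mature adipocytes and less RNA of these genes per cell cannot be told apart in bulk libraries.

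Of 43 genes of the extracellular matrix and its proteases, 31 had an interaction below 0, with a median of -0.06, 9 negative and 0 positive at an unadjusted p under 0.05. The median was -0.09 without the first palmitate library and -0.03 without the second. Col1a1, the main chain of type I collagen, stood at 631 and 626 CPM in untreated cells, 586 and 595 under A66, 717 and 773 under palmitate and 576 and 610 under both agents. Palmitate libraries were the highest, and the combination overlapped those with A66. The palmitate effect on Col1a1 was 0.25 without A66 and 0.01 with it, a blunted effect (interaction -0.24, adjusted p = 0.29), and DESeq2's Wald test called it. Summed preadipocyte and fibroblast markers stood at 1537 to 1577 CPM in untreated cells, 1712 to 1774 under A66, 1593 to 1627 under palmitate and 1680 to 1798 under both agents, and their part in the matrix values was not tested.

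Among the marker lists, the mature adipocyte markers had a median interaction of -0.14 with 9 of 10 below 0, and the 4 macrophage markers tested one of 0.29. Without single libraries these ran from -0.23 to -0.04 (without the first and the second palmitate library) and from 0.17 (without the second untreated library) to 0.41 (without the second A66 library). The macrophage median was 0.08 when only genes with at least 10 counts in every library were kept. Of the 4 macrophage markers tested, 1 had a positive and 1 a negative interaction at an unadjusted p under 0.05. The preadipocyte and fibroblast markers, the endothelial markers and the replication-dependent histones had medians of 0.02, 0.01 and 0.01, with 3 of the 8 preadipocyte and fibroblast markers tested negative at an unadjusted p under 0.05 and 0 positive. Without single libraries these medians changed sign, and ran from -0.09 to 0.09 (without the first and the second combination library), from -0.37 (without the first untreated library) to 0.67 (without the first A66 library) and from -0.14 to 0.15 (without the first and the second palmitate library). The 5 remaining lists of pathways had medians between -0.02 and 0.08. PPAR target genes had a median of 0.00 over 26, FOXO targets and insulin receptor pathway genes -0.02 over 36, and clock genes 0.03 over 22. Without single libraries these medians lay between -0.05 and 0.05. Acot2, a thioesterase of mitochondria, and Ucp3, an uncoupling protein, had interactions of 0.20 and -0.31 (adjusted p of 0.52 and 0.55), that of Acot2 being 0.13 without the first palmitate library. Pck1, which makes phosphoenolpyruvate for glyceroneogenesis, had -0.48 (adjusted p = 0.44) and Per1, a repressor of the clock, 0.25 (adjusted p = 0.40). The interaction of Pck1 was -0.24 without the second palmitate library and -0.30 without the first combination library. Immediate early genes had a median of 0.08 over 31, with Ccn1 at 0.32 and Atf3 at 0.35. Cell cycle genes had one of 0.05 over 39, with 29 above 0. Of these genes, the cyclin-dependent kinase inhibitor Cdkn2c was at -0.32 and Cdc6, at a mean of 1.36 CPM, at 1.12. Both medians were -0.01 without the second untreated library and reached 0.10 and 0.15 without the second A66 library. Without single libraries the interaction ran from 0.14 to 0.50 for Ccn1 and from 0.15 to 0.53 for Atf3.

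**Figure D5:**
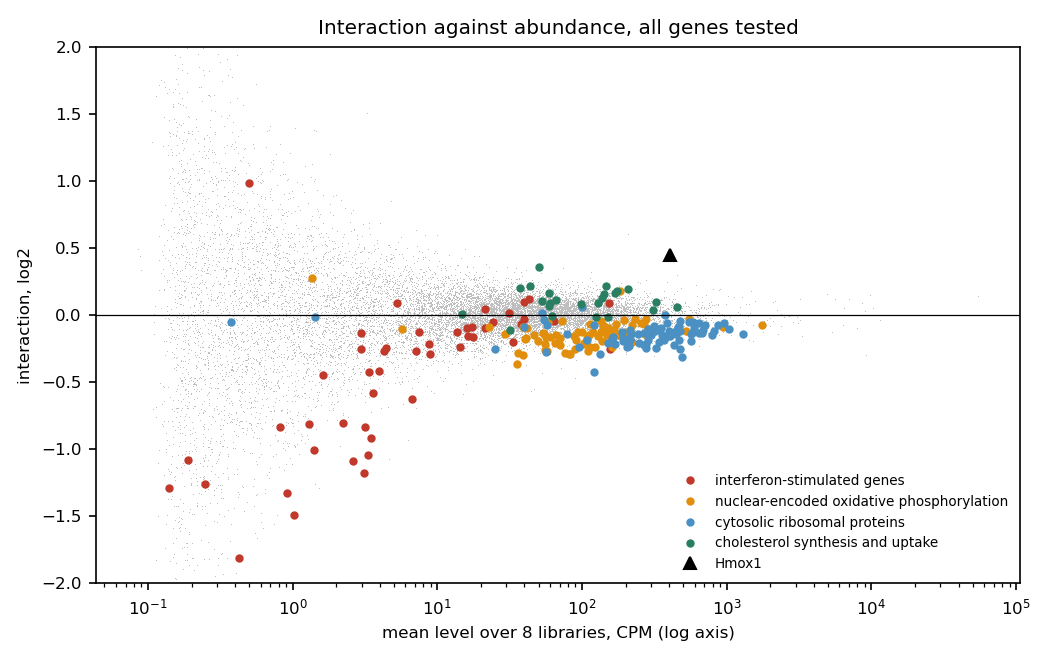
Interaction (log2) against mean level in CPM on a log axis for all genes tested (grey), with 4 lists in colour and Hmox1 as a triangle; 77 genes lie outside the axis. The scatter narrows as the level rises, and most interferon-stimulated genes lie under 10 CPM where it is wide.

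Sequences before the start sites of these genes were searched for the short motifs of the factors that name the lists. RefSeq promoters on GRCm38.p6 matched 10388 of the genes tested, and the 250 bases before the start were read on both strands. Hmox1 had no entry. GAAANNGAA, a short form of the interferon-stimulated response element, was in 7.38% of these promoters and in 15 of 34 of the interferon list. TGATGCAAT, an element of ATF and CCAAT-enhancer factors, was in 0.154% and in 4 of 29 of the ATF4 list. TGACNNNGC, the core of the antioxidant response element, was in 13.9% and in 6 of 26 of the NRF2 list, and CCAAT, the box of the factor NF-Y that works beside SREBP, in 40.9% and in 16 of 17 of the cholesterol list.

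The same letters were counted in genes by sign of the interaction at an unadjusted p under 0.05, with 393 positive and 439 negative genes matched. GAAANNGAA was in 8.91% of the positive and 10.3% of the negative, TGACNNNGC in 17.8% and 13.9%, TGATGCAAT in 0.763% and 0.228% (3 and 1 promoters), CCAAT in 41.0% and 40.8%, CACGTG, an E-box, in 8.91% and 8.20% against 9.69% of all, and GTAAACA, a forkhead element, in 2.80% and 3.42% against 2.72%. GGGACTTTC, an NF-kB element, was in 0 of either and in 0.366% of all. A match of letters is a description and not a site. For each of the 4 pairs of list and motif, the promoter of the member with the smallest interaction p among those with the motif is shown to give the letters in their surroundings, 5′ to 3′ on the strand of the gene, with the motif on either strand in capitals. They lie at chr19:34607707-34607956 (plus strand, Ifit3b, with 3 matches that begin 187, 153 and 134 bases before the start), chr3:122245307-122245556 (plus strand, Gclm, 134 bases before), chr11:120643749-120643998 (minus strand, Pycr1, which makes proline, 103 bases before) and chr3:89454291-89454540 (plus strand, Pmvk, 136 bases before).
Ifit3b: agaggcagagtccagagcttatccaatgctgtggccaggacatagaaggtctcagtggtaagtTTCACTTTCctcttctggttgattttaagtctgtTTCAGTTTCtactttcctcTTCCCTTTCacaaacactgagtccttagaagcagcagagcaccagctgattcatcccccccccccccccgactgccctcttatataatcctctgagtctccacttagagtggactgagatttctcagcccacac
Gclm: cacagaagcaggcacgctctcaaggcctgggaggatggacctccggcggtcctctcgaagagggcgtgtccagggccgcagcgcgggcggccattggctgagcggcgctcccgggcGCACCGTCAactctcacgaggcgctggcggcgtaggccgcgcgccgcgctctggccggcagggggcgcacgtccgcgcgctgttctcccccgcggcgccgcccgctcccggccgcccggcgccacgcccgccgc
Pycr1: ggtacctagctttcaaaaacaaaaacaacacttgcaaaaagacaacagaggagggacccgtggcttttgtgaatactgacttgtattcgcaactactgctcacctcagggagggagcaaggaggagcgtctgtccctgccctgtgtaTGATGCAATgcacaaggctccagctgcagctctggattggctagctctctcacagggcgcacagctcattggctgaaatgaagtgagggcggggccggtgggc
Pmvk: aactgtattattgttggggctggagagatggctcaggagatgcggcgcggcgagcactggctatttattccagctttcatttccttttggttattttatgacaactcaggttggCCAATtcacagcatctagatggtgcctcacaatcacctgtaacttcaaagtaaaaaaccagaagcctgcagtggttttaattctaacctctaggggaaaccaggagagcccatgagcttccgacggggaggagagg
Of these genes, Gclm stood at 124 to 133 CPM without palmitate, 132 and 124 with palmitate and 144 and 154 with both. Pycr1 stood at 29.1 and 29.9 CPM with A66 and at 36.0 and 36.3 with both, with an interaction of 0.23. The values of Ifit3b and Pmvk are given above.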

How the data were processed

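Poly(A) RNA from 8 cultures was sequenced after TruSeq Stranded mRNA preparation. The authors used TopHat2 2.0.11 to align the reads to GRCm38 and HTSeq to count them on Ensembl genes, and deposited these whole-number counts unnormalized. The strand setting and annotation are not given in the sources used here. The 6 deposited columns of the authors' DESeq2 comparison, which hold fold changes with their errors and p-values, were not used. Of 43629 genes, 42462 had a symbol in GENCODE M21, which gave positions and exonic lengths.

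All 8 libraries were fitted together in R 4.3.3 with edgeR 4.0.16, with 1 mean per group, TMM normalization, the filterByExpr filter (minimum count 10) and quasi-likelihood tests, two-sided, with Benjamini-Hochberg adjustment over 14587 genes. The common coefficient of variation was 0.0406. Intervals are 95% intervals of the fit. The study's DESeq2 (here version 1.42.0, Wald test) served as an alternative. Main effects average an agent's effect over both states of the other. The script was tested on simulated counts.

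Genes were named by a rule: called interactions, or the 5 smallest p of a direction without any; 2 members with the smallest p per list; and 3 additive genes per pair of directions, some of which are not reported here. The additional members of lists named beside these were chosen after their values were seen, and all lists and members were chosen with earlier results of these data known. A floor of 3 counts corresponds to 0.0521 to 0.0710 CPM, which covers counting error only. Alternatives were RLE or no scaling factors, other filters, a robust fit, the replicate block, leaving out each library, other thresholds and, chosen after seeing the data, corrections for length and GC content.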

Additional observations from a re-analysis of the deposited data

Results flagged for a closer look

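The A66 effect on Hmox1 differed between cells with and without palmitate, by a test of the difference itself (interaction 0.447 on the log2 scale, edgeR's quasi-likelihood test, adjusted p = 0.0019). Its level in both A66 libraries was below that in both untreated ones, and the combination libraries were above all others. The range of the adjusted p over the alternatives was 1.14e-11 to 0.0675, with the largest value without the first A66 library. At a minimum change of 1.2-fold, which that range leaves out, Hmox1 was not called. Groups of 2 libraries were too small for a check of single outlying libraries.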

How the results depend on the processing

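Hmox1 kept its positive sign under all 17 alternatives that give it a value (0.39 to 0.50) and its call in all but 1, without the first A66 library (0.43, adjusted p 0.0675). At a minimum change of 1.2-fold, which is not among these 17, Hmox1 was not called. The number of called interactions did not hold. Positive and negative calls numbered 8 and 13 with DESeq2, 20 and 71 with no filter on low counts, 2 and 2 with the length and GC correction, and 520 and 635 at an unadjusted p under 0.05. With no filter the calls included Pmvk, Srxn1, Serpina3n and Hp above 0 and Rplp1, Uqcr10, Uqcr11, Ifit3b, Iigp1, Oasl2, Retn, Plin1, G0s2, Pck1, Cdkn2c and Col1a1 below it. In that fit Pck1 had an interaction of -0.49 (adjusted p = 4.7e-09), against -0.48 (adjusted p = 0.44) in the main fit. Both are by edgeR's quasi-likelihood test. The estimate hardly moved, so this call rests on the smaller error of the fit with no filter. Positive calls were 0 at a minimum change of 1.2-fold. Negative calls were 1 with library size only, 1 at an adjusted p under 0.1, 2 with the replicate block and 1 with the block and the length and GC correction. Leaving out single libraries gave 0 to 4 positive and 0 to 9 negative calls.

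The labels name no batch common to same-numbered libraries, whose deviations correlated at -0.147 to 0.153 over 8956 genes. The share of ribosomal RNA was higher in the second library of each group than in the first. Whether same-numbered libraries share a batch was not tested. With the replicate block 1 positive and 2 negative interactions were called (Hmox1, Ogn, Rpl36), and 92 genes were additive.

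Additive genes numbered 141 with no filter and 157 at the 1.5-fold bound, and 32 to 86 without single libraries, the lowest without the first A66 library. Under the same omissions both main effects were called in 85 to 166 genes. Palmitate raised 204 to 455 and lowered 168 to 421 genes, A66 raised 179 to 337 and lowered 233 to 442, and the shares with a larger effect in the combination were 50.8% to 80.9% for palmitate and 48.7% to 72.5% for A66.

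With the length and GC correction, without and with the replicate block, list medians were 0.086 and 0.087 for cholesterol, 0.082 and 0.083 for the unfolded protein response, 0.112 and 0.112 for ATF4, -0.093 and -0.093 for oxidative phosphorylation and -0.090 and -0.090 for ribosomal proteins. Without single libraries they ran from 0.082 to 0.141 for cholesterol, 0.058 to 0.109 for ATF4, 0.035 to 0.104 for NRF2, 0.049 to 0.085 for the unfolded protein response, -0.183 to -0.107 for ribosomal proteins and -0.191 to -0.101 for oxidative phosphorylation, and the interferon list stayed between -0.340 and -0.181 in every alternative. The cause was not tested in any of these. Depth limits genes under 10 CPM, whose intervals exceeded 1.2-fold.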
